A study of Homo sapiens with 7 samples.

Results

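The genes described here are 42 genes that human cells use to enter and pass through mitosis, the G2/M genes. They were listed by name and function, from cyclins and kinases to kinetochore and spindle proteins, by a rule that used no measured value, although earlier results of these data were known when the list was made. A probe was matched to 41 of the 42 among 19060 named genes, and UBE2C was the gene with no probe named by the table used. All 41 were well above background, by the scanner's own flag, on all 7 arrays, as were 16454 named genes.

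The study silenced deadenylases, the enzymes that shorten the poly(A) tails of mRNAs, in NCI-H520 cells, a human lung squamous cell carcinoma line. Cells received 6 µg of a pLKO.1 plasmid, were placed under 6 µg/mL puromycin from 12 h and were harvested at 72 h, in the control wells as well. The 7 groups were an empty vector, a non-target shRNA, and shRNAs against PARN, CNOT6, CNOT6L, CNOT7 and nocturnin (NOC, gene symbol NOCT), with 1 single-colour array and 1 shRNA plasmid each. Untransfected cells, a further control of the study, were not analysed here. With 1 array per group no shRNA has replicates, so the difference between the empty-vector and non-target arrays is the only measure of spread, and the labels do not say which cultures were grown side by side.

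During G2, cyclin B with CDK1 accumulates until CDC25 phosphatases switch the kinase on and the cell enters mitosis. PLK1 and the Aurora kinases then build the spindle, the spindle checkpoint holds anaphase until every kinetochore is attached, and CDC20 activates the anaphase-promoting complex, which destroys cyclin B and securin. Most of these genes are transcribed in G2 through CCAAT boxes, bound by NF-Y, and the cell cycle genes homology region (CHR), bound by the DREAM complex in resting cells and by B-MYB and FOXM1 complexes in cycling cells, and together they are widely used as a readout of proliferation in tumours.

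The promoters below are shown because they hold, just before the start, strings that many of these genes share. Each is the last 100 bases before an annotated start, 5′ to 3′ on the gene's strand, from RefSeq on GRCh38.p14, with the CHR string TTTGAA and the CCAAT box, on either strand, in capitals. CCNB2, PLK1, CDC20 and MKI67 carry both strings, CDK1 carries them before the second of its 2 listed starts, CCNB1 has CCAAT boxes alone, ANLN has CHR strings alone and MAD2L1 has neither.

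CCNB1, chr5:69167050-69167149, plus strand: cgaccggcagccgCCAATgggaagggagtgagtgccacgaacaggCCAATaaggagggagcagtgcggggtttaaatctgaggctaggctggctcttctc
CCNB2, chr15:59105046-59105145, plus strand: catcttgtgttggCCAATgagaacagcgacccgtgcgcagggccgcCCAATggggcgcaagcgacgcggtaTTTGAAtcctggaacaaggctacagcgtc
PLK1, chr16:23678789-23678888, plus strand: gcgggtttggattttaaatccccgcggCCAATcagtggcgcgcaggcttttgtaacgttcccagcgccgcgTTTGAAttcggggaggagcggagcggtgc
CDC20, chr1:43358881-43358980, plus strand: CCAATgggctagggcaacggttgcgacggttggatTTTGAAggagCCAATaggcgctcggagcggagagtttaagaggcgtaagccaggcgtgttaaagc
MKI67, chr10:128126424-128126523, minus strand: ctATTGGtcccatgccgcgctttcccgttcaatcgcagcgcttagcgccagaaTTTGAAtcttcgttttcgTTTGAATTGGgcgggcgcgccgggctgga
CDK1, chr10:60778378-60778477, plus strand: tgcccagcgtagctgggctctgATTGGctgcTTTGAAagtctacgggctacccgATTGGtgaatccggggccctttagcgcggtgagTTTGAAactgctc
ANLN, chr7:36389762-36389861, plus strand: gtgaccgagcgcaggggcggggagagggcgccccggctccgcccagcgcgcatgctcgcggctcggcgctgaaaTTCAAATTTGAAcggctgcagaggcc
MAD2L1, chr4:120066849-120066948, minus strand: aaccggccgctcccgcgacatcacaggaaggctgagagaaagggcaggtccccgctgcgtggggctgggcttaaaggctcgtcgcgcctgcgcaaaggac

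The TTTGAA of CCNB2 and that of PLK1 each began 29 bases before the start, and the nearest CCAAT boxes began 54 and 73 bases before it. In MKI67 the string at -29 overlapped a reversed CCAAT box by 1 base, and in ANLN the 2 strings abutted on opposite strands. Promoters were listed for 35 of the 42 genes and for 27305 genes in all. Within 250 bases before any start of a gene, TTTGAA (reverse TTCAAA) was found in 20 of 35 mitosis genes, or 57.1%, against 16.1% of all genes, and CCAAT (reverse ATTGG) in 29, or 82.9%, against 37.0%. The related TTCGAA was found in 2, or 5.71%, against 1.5%. Of the E2F strings, TTTCCCGC, TTTGGCGC and TTTCGCGC were each found in 1 gene, or 2.86%, against 1.70%, 0.681% and 0.542%, and TTTGCCGC in 0 against 0.586%, all on either strand. Both TTTGAA and CCAAT lay in the last 100 bases of 12 of the 35, or 34.3%, against 1.52% of all genes. A match is a string of letters and was not tested as a binding site.

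**Figure D1:**
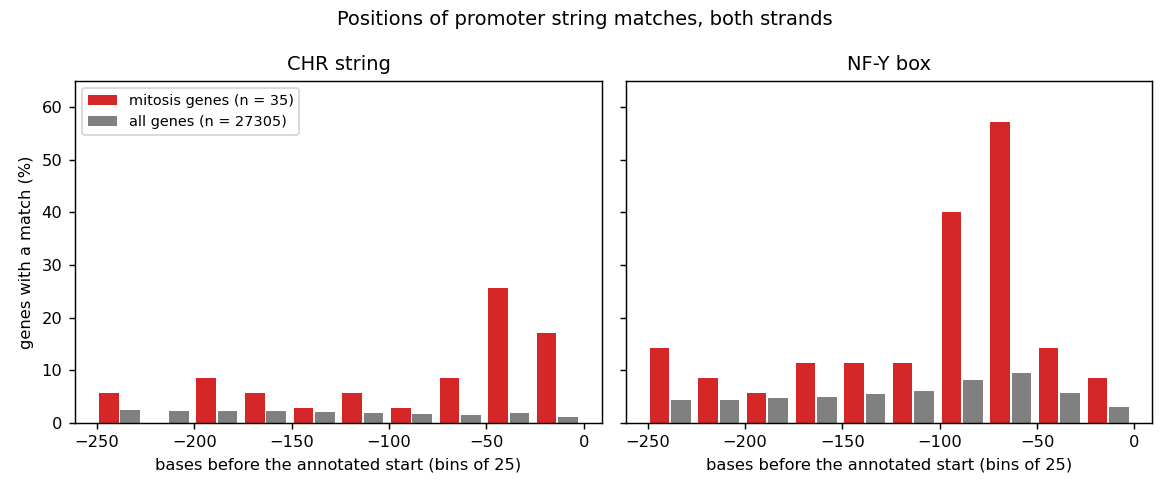
Share of genes (y axis, percent) with a string match beginning in each 25-base bin before the annotated start (x axis, bases), for the CHR string on the left and the NF-Y-bound box on the right. Red bars are the 35 mitosis genes with a listed promoter and grey bars all 27305 genes. In mitosis genes the CHR string was most frequent from 50 to 26 bases before the start, at 25.7% against 1.82%, and the NF-Y box from 75 to 51 bases, at 57.1% against 9.50%.

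Values are log2 signals, as processed by the scanner software, from which the array's own 75th percentile was subtracted, so that a level of 0 is the 75th percentile and a difference of 1 is 2-fold. The level of a probe is not compared with that of another probe. The arrays lay on 1 slide. Row 1 of it held the controls with the PARN and CNOT6 shRNAs, and row 2 held no control beside the NOC, CNOT7 and CNOT6L shRNAs, so that for these 3 slide row and silencing cannot be told apart. The NOC shRNA image was extracted separately from the other 6, and the part of that in its values was not tested. The 75th percentile signal ran from 1366 to 3986 and the share of probes above background from 82.0% to 91.4%. The targeted mRNA was lower than on both control arrays on each shRNA's own array, at -1.13 for PARN, -0.89 for CNOT7, -0.67 for CNOT6L, -0.16 for CNOT6 and -0.43 for NOCT against the control mean, although the labels give the CNOT6L and NOC plasmids the same target accession. For NOCT the controls were 0.41 apart and the CNOT7 array, at -0.36, was also below both. PARN mRNA was also below both controls with CNOT6L shRNA (-0.38) and NOC shRNA (-0.15). The same held for CNOT6L mRNA with CNOT7 shRNA (-0.11) and NOC shRNA (-0.14), and for CNOT7 mRNA with PARN shRNA (-0.059). Of the cell type markers, SOX2, at 4.58 to 5.45, and the epithelial genes EPCAM, KRT8, KRT18 and CDH1 were well above background on all 7 arrays. So were the squamous genes KRT6A, PKP1 and TRIM29 and the adenocarcinoma genes NKX2-1 and NAPSA. The squamous genes TP63, KRT5, KRT14 and DSG3 were so on 2, 4, 1 and 0 arrays. Also flagged on all 7 arrays were the fibroblast genes COL1A1 and DCN and the immune genes PTPRC, CD3E and CD68. The same held for the endothelial genes PECAM1, VWF and CDH5, so the flag does not tell cell types apart. In bulk RNA, fewer cells in G2 or mitosis and less of an mRNA per cell cannot be told apart.

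As a group, the mitosis genes lay below the controls with every shRNA, by small amounts. Their median difference from the mean of both controls was -0.12 with PARN shRNA, -0.19 with CNOT6 shRNA, -0.31 with CNOT6L shRNA, -0.24 with CNOT7 shRNA and -0.32 with NOC shRNA. The medians of all 16454 genes were -0.015, 0.034, -0.0017, -0.025 and -0.025 in the same order, and those of the 10785 genes in the range of signal of the mitosis genes lay between -0.016 and 0.019. The 2 control arrays differed by a median of -0.024 over the mitosis genes (empty vector minus non-target), and the absolute difference between them had a median of 0.12, against 0.24 over all genes. All 5 comparisons share these 2 control arrays.

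**Figure D2:**
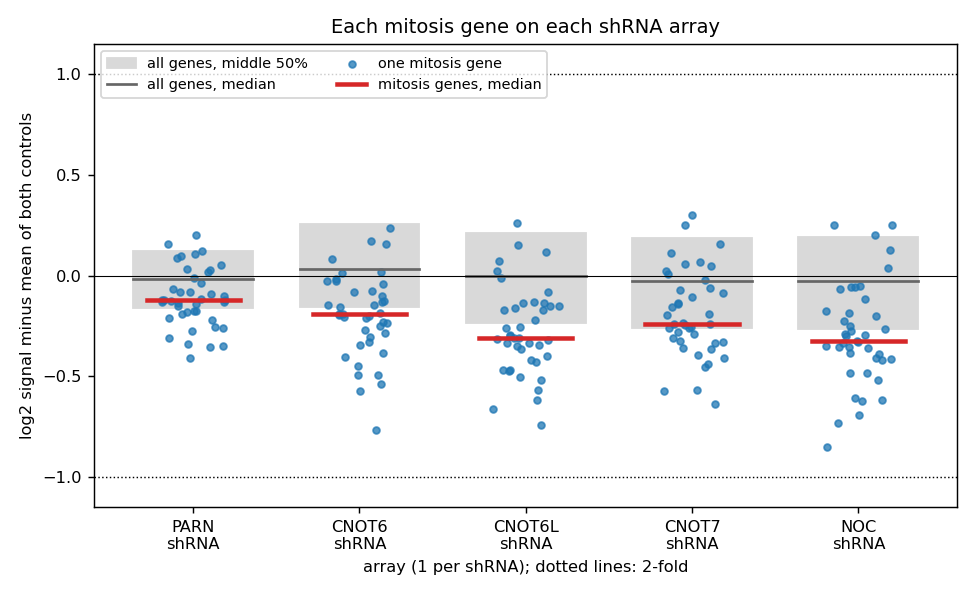
Difference of each of the 41 mitosis genes from the mean of both controls (y axis, log2) on each shRNA array (x axis). Blue points are genes, red bars their median, and grey boxes and bars the middle 50% and the median of all 16454 genes. The red bars lie between -0.12 and -0.32, and no gene passes the dotted lines at 2-fold.

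No mitosis gene was 2-fold from both controls in the same direction with any shRNA. By the same rule 0.509% of all genes were called with PARN shRNA, 0.504% with CNOT6 shRNA, 0.906% with CNOT6L shRNA, 1.02% with CNOT7 shRNA and 1.39% with NOC shRNA. At 1.5-fold, 0 were lower with PARN shRNA (background 1.49%) and 0 with CNOT6 shRNA (1.41%). With CNOT6L shRNA the 1 gene was MKI67 (background 2.92%), with CNOT7 shRNA it was CDC20 (3.42%), and with NOC shRNA CDC20, CDC25B and KIF20A were lower (3.74%). None was 1.5-fold higher with any shRNA. With so few genes past either fold, these counts cannot be told from the background.

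At any size, 27 of 41 lay below both controls with PARN shRNA (background 31.9%), 30 with CNOT6 shRNA (29.4%), 34 with CNOT6L shRNA (33.7%), 29 with CNOT7 shRNA (35.8%) and 34 with NOC shRNA (36.5%). Above both controls were 4 with PARN shRNA (background 23.4%), 5 with CNOT6 shRNA (35.5%), 4 with CNOT6L shRNA (32.4%), 7 with CNOT7 shRNA (30.6%) and 4 with NOC shRNA (31.1%). The highest of the 7 arrays was a control for 30 of 41 genes, or 73.2%, against 32.2% of all genes, and a control was the lowest array for 0, against 30.5% of all genes. NOC shRNA, the array with its own image extraction, was the lowest for 15, or 36.6%, against 13.9% of all genes.

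With the 5 shRNA arrays as a single arm against the 2 controls, all 5 lay below both controls for 17 of 41 genes, or 41.5%, against 4.07% of all genes, and all 5 above for 0, against 2.91%. The 17 were CDC20, PLK1, CCNF, CDC25C, CENPA, ESPL1, BUB1B, TPX2, KIF2C, CCNB2, CCNB1, PRC1, BUB1, TTK, NUSAP1, AURKA and KIF11. Within slide row 1, where shRNAs and controls lay side by side, both shRNA arrays were below both controls for 23 genes, or 56.1%, against a background of 15.4%. The 3 arrays of row 2 were all below both controls for 27, or 65.9%, against 21.1%.

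In limma's moderated test of the 5 shRNA arrays against the 2 controls, 38 of 41 mitosis genes were lower, with a median of -0.23. The share of all probes that were lower was not counted, and the median of this difference over all 16454 genes was -0.0078. Of the 41, 0 passed a Benjamini-Hochberg adjusted p of 0.05 (background 0% of 38004 probes, smallest adjusted p 0.473). At an unadjusted p under 0.05, 10 were lower (background 1.82%) and 0 higher, and 1420 of all probes passed. The count rested on both controls: it was 2 without the empty vector (background 1.94%) and 2 without the non-target shRNA (4.7%), which is near the background. It was 16 without PARN shRNA (background 4.06%), 11 without CNOT6 shRNA (2.67%), 4 without CNOT6L shRNA (1.22%), 6 without CNOT7 shRNA (1.02%) and 5 without NOC shRNA (0.913%). The 10 were CDC25C, CCNB2, PLK1, CDC20, BUB1B, CCNB1, KIF2C, TPX2, ESPL1 and CENPA, each with an adjusted p of 1 by limma. The smallest unadjusted p was that of CDC25C, with a difference of -0.42 and a standard error of 0.14. That test takes its spread from arrays of unlike plasmids, since no condition was repeated. Slide row was also put as a term in the fit. Row 2 held no control, so the fitted difference is then only that of the PARN and CNOT6 arrays from the controls of row 1. In that fit 34 of 41 were lower, 6 of these had an unadjusted p under 0.05 (background 1.88%) and 0 passed the adjusted threshold. The share of all probes that were lower was not counted there either.

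**Figure D3:**
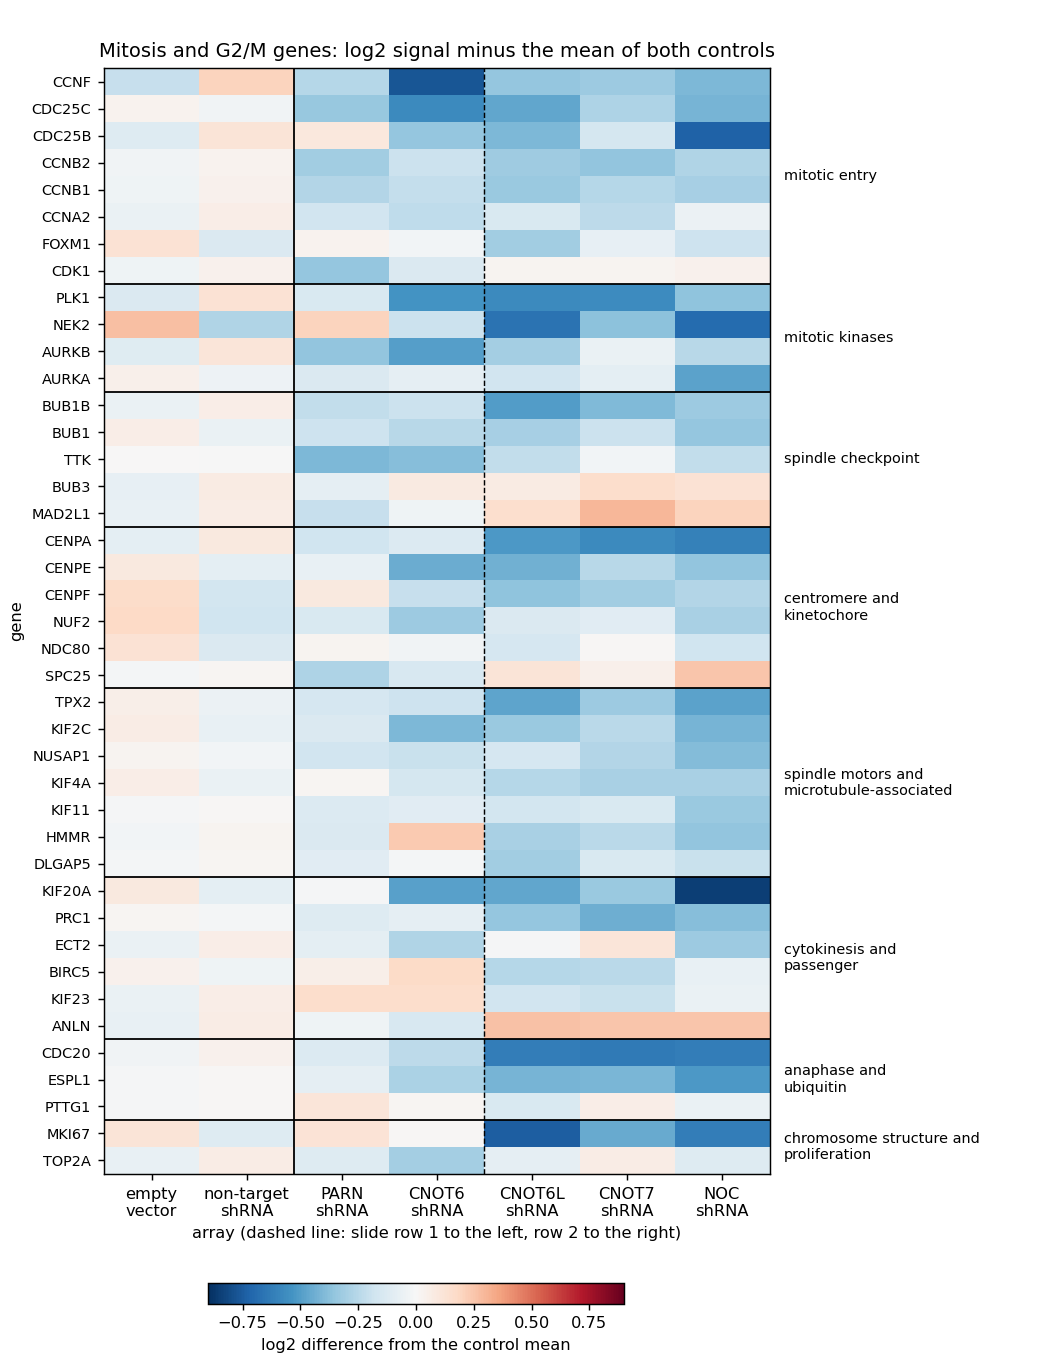
Difference of each mitosis gene (rows, grouped by role and ordered within a role by the mean over the shRNAs) from the mean of both controls on each of the 7 arrays (columns), as a colour from blue (lower) to red (higher) in log2 units. The solid line separates the controls from the shRNAs and the dashed line the slide rows. CCNF with CNOT6 shRNA (-0.77) and KIF20A with NOC shRNA (-0.85) are the darkest blue cells, and MAD2L1 with CNOT7 shRNA (0.30) is the highest value.

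The genes of mitotic entry had a median of -0.26, -0.22, -0.33, -0.25 and -0.29 with PARN, CNOT6, CNOT6L, CNOT7 and NOC shRNA. CCNB1, the cyclin B1 that activates CDK1 at mitotic entry, was 2.20 and 2.27 on the control arrays, 1.98 with PARN shRNA, 2.03 with CNOT6 shRNA, 1.90 with CNOT6L shRNA, 1.98 with CNOT7 shRNA and 1.94 with NOC shRNA. Here and below the empty vector is given first. All 5 shRNA arrays were below both controls, and the gap between the lowest control and the highest shRNA array was wider than that between the controls. CCNB2, its close relative, was also below both controls on all 5, with differences from -0.36 to -0.19. A second CCNB1 probe, on 1 spot, was at -0.037 with NOC shRNA against the control mean, where the first was at -0.30. With CNOT6 and CNOT7 shRNA the second probe was at -0.089 and -0.13, against -0.21 and -0.26 on the first. With PARN shRNA both were at -0.26.

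CDK1, the kinase itself, did not follow its cyclins. Its level was 1.68 and 1.76 on the control arrays, 1.37 with PARN shRNA, 1.59 with CNOT6 shRNA, 1.74 with CNOT6L shRNA, 1.74 with CNOT7 shRNA and 1.76 with NOC shRNA. The PARN and CNOT6 arrays lay below both controls, and the row 2 arrays between the controls. CCNA2, the cyclin of S and G2 phase, had among the narrowest ranges, at 0.13 and 0.24 on the control arrays, 0.012 with PARN shRNA, -0.045 with CNOT6 shRNA, 0.051 with CNOT6L shRNA, -0.048 with CNOT7 shRNA and 0.14 with NOC shRNA. Its NOC array lay between the controls and the other 4 below both.

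CDC25C and CDC25B are phosphatases that remove the inhibitory phosphates from CDK1. The level of CDC25C was -0.64 and -0.70 on the control arrays, -1.01 with PARN shRNA, -1.25 with CNOT6 shRNA, -1.14 with CNOT6L shRNA, -0.96 with CNOT7 shRNA and -1.09 with NOC shRNA, so that every shRNA array was lower than both controls. For CDC25B the levels were -0.85 and -0.62 on the control arrays, -0.64 with PARN shRNA, -1.08 with CNOT6 shRNA, -1.14 with CNOT6L shRNA, -0.89 with CNOT7 shRNA and -1.47 with NOC shRNA. Its PARN array lay between the controls, and the NOC array was the lowest. CCNF, the F-box protein cyclin F that marks proteins for destruction in G2, had the widest range of all 41, at -2.82 and -2.41 on the control arrays, -2.87 with PARN shRNA, -3.38 with CNOT6 shRNA, -2.96 with CNOT6L shRNA, -2.94 with CNOT7 shRNA and -3.02 with NOC shRNA, read from 1 spot per array. The controls themselves differed by 0.41, and all 5 shRNA arrays lay below them.

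FOXM1, the transcription factor that drives many G2/M genes, was 2.04 and 1.78 on the control arrays, 1.95 with PARN shRNA, 1.89 with CNOT6 shRNA, 1.60 with CNOT6L shRNA, 1.84 with CNOT7 shRNA and 1.73 with NOC shRNA. Only the CNOT6L and NOC arrays were below both controls, and the other 3 lay between them. The mean over the 5 shRNAs was -0.11, within the 0.26 that separated the controls.

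The mitotic kinases had medians from -0.13 with PARN shRNA to -0.44 with CNOT6L shRNA. PLK1, which promotes mitotic entry and spindle assembly, was 0.41 and 0.66 on the control arrays, 0.40 with PARN shRNA, -0.0054 with CNOT6 shRNA, -0.035 with CNOT6L shRNA, -0.034 with CNOT7 shRNA and 0.18 with NOC shRNA. The PARN array was just under the lower control, and the other 4 were further below both. A second PLK1 probe, on 1 spot, differed with CNOT6 shRNA, at -0.029 against the control mean where this probe was at -0.54. AURKA, the kinase of centrosomes and spindle poles, was 1.54 and 1.44 on the control arrays, 1.36 with PARN shRNA, 1.41 with CNOT6 shRNA, 1.32 with CNOT6L shRNA, 1.41 with CNOT7 shRNA and 1.01 with NOC shRNA. All 5 were below both controls, 4 of them narrowly.

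For AURKB, the kinase of the chromosomal passenger complex, the levels were -0.82 and -0.60 on the control arrays, -1.06 with PARN shRNA, -1.20 with CNOT6 shRNA, -1.02 with CNOT6L shRNA, -0.77 with CNOT7 shRNA and -0.96 with NOC shRNA. The CNOT7 array lay between the controls and the other 4 below them. NEK2, a centrosome kinase, was 0.09 and -0.45 on the control arrays, 0.017 with PARN shRNA, -0.38 with CNOT6 shRNA, -0.85 with CNOT6L shRNA, -0.55 with CNOT7 shRNA and -0.87 with NOC shRNA. Its controls differed most of all 41 genes, by 0.54, and the CNOT6L, CNOT7 and NOC arrays were below both.

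The spindle checkpoint genes split. TTK, the kinase that starts checkpoint signalling at the kinetochore, was 0.28 and 0.27 on the control arrays, -0.13 with PARN shRNA, -0.11 with CNOT6 shRNA, 0.055 with CNOT6L shRNA, 0.25 with CNOT7 shRNA and 0.05 with NOC shRNA. The controls were nearly equal, and the PARN and CNOT6 arrays were lowest. BUB1 and BUB1B, checkpoint kinase and pseudokinase, were below both controls on all 5 arrays, from -0.35 to -0.19 and from -0.50 to -0.19.

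MAD2L1 encodes MAD2, which binds and holds back CDC20. It was 1.22 and 1.35 on the control arrays, 1.07 with PARN shRNA, 1.24 with CNOT6 shRNA, 1.44 with CNOT6L shRNA, 1.58 with CNOT7 shRNA and 1.49 with NOC shRNA, lowest with PARN shRNA and above both controls on the 3 arrays of row 2. BUB3, which carries BUB1 to kinetochores, had the narrowest range, at 1.84 and 1.99 on the control arrays, 1.84 with PARN shRNA, 2.0 with CNOT6 shRNA, 2.0 with CNOT6L shRNA, 2.08 with CNOT7 shRNA and 2.05 with NOC shRNA. These 2 checkpoint genes and ANLN were the members with a mean over the 5 shRNAs above the controls, at 0.081 for MAD2L1, 0.071 for BUB3 and 0.12 for ANLN.

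Centromere and kinetochore genes had medians from -0.10 with PARN shRNA to -0.28 with NOC shRNA. CENPA, the histone H3 variant that marks centromeres, was -0.42 and -0.24 on the control arrays, -0.51 with PARN shRNA, -0.46 with CNOT6 shRNA, -0.85 with CNOT6L shRNA, -0.90 with CNOT7 shRNA and -0.94 with NOC shRNA. All 5 arrays were below both controls, with the row 2 arrays lowest. SPC25, a subunit of the NDC80 complex that grips microtubules, went the other way in row 2, at 0.89 and 0.92 on the control arrays, 0.63 with PARN shRNA, 0.76 with CNOT6 shRNA, 1.02 with CNOT6L shRNA, 0.95 with CNOT7 shRNA and 1.16 with NOC shRNA. Its PARN and CNOT6 arrays were below both controls and the other 3 above both, read from 1 spot per array.

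The other subunits of that complex among the 42, NDC80 and NUF2, were each below both controls on 2 arrays and above both on 0, with means of -0.065 and -0.20 and controls 0.26 and 0.36 apart. CENPE, a kinetochore motor, and CENPF, a large kinetochore protein of G2 and mitosis, were below both controls on 4 arrays each, with means of -0.31 and -0.21. The exception was the PARN array for both genes, which lay between the controls.

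Of the spindle motors and microtubule-associated genes, 7 of 7 lay below both controls with CNOT6L, CNOT7 and NOC shRNA (background 33.7%, 35.8% and 36.5%). These arrays lay in the slide row that held no control, so slide row and silencing cannot be told apart for this count. TPX2, which activates AURKA on spindle microtubules, had a mean of -0.32, or 79.8% of control. KIF2C, a microtubule-depolymerising kinesin, had -0.31, NUSAP1, which bundles spindle microtubules, -0.23, and KIF11, the motor that separates spindle poles, -0.17. These 4 were below both controls on all 5 arrays.

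KIF4A, a chromosome-bound kinesin, and DLGAP5, which stabilises kinetochore fibres, were below both controls on 4 arrays, with means of -0.20 and -0.15, although a second KIF4A probe had a mean of 0.19. HMMR, a spindle protein and hyaluronan receptor, was 2.37 and 2.42 on the control arrays, 2.27 with PARN shRNA, 2.63 with CNOT6 shRNA, 2.10 with CNOT6L shRNA, 2.15 with CNOT7 shRNA and 2.04 with NOC shRNA. It was above both controls with CNOT6 shRNA and below both with the other 4.

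Genes of cytokinesis and the passenger complex had medians from -0.024 with PARN shRNA to -0.22 with CNOT7 shRNA. KIF20A, the kinesin that carries the passenger complex to the central spindle, was 0.48 and 0.30 on the control arrays, 0.38 with PARN shRNA, -0.10 with CNOT6 shRNA, -0.08 with CNOT6L shRNA, 0.054 with CNOT7 shRNA and -0.46 with NOC shRNA. The NOC array stood apart below the others, and its difference from the control mean, -0.85, was the largest of any mitosis gene on any array, at 55.5% of control. PRC1, which bundles the microtubules of the central spindle, was below both controls on all 5, from -0.44 to -0.079.

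KIF23, a subunit of centralspindlin, was 2.48 and 2.60 on the control arrays, 2.70 with PARN shRNA, 2.70 with CNOT6 shRNA, 2.37 with CNOT6L shRNA, 2.34 with CNOT7 shRNA and 2.48 with NOC shRNA. It was above both controls on the row 1 shRNA arrays, and of the row 2 arrays CNOT6L and CNOT7 were below both. A second KIF23 probe, on 1 spot, was at -0.18 with CNOT6 shRNA against the control mean, where this probe was at 0.16. With NOC shRNA the second probe was at -0.22 and this probe at -0.057. BIRC5, the passenger protein survivin, was 4.31 and 4.22 on the control arrays, 4.32 with PARN shRNA, 4.44 with CNOT6 shRNA, 4.01 with CNOT6L shRNA, 4.03 with CNOT7 shRNA and 4.20 with NOC shRNA, above both controls with PARN and CNOT6 shRNA and below both on the 3 row 2 arrays.

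ANLN, the contractile ring scaffold anillin, showed the reverse of most members in row 2. Its levels were -0.47 and -0.34 on the control arrays, -0.44 with PARN shRNA, -0.55 with CNOT6 shRNA, -0.14 with CNOT6L shRNA, -0.16 with CNOT7 shRNA and -0.16 with NOC shRNA. ECT2, the exchange factor that activates RhoA at the cleavage site, was below both controls with PARN, CNOT6 and NOC shRNA and above both with CNOT7 shRNA, with differences from -0.33 to 0.11.

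CDC20 had the lowest mean of the 41 genes. Its levels were 3.09 and 3.16 on the control arrays, 3.01 with PARN shRNA, 2.89 with CNOT6 shRNA, 2.51 with CNOT6L shRNA, 2.49 with CNOT7 shRNA and 2.51 with NOC shRNA. The mean of the 5 shRNAs was -0.45, or 73.3% of control, while the controls were 0.072 apart, and the 3 arrays of row 2 were nearly level and below those of row 1. ESPL1, the separase that cuts cohesin at anaphase, was below both controls on all 5, from -0.52 to -0.083. PTTG1, the securin that inhibits separase, differed little between arrays, at 4.37 and 4.39 on the control arrays, 4.49 with PARN shRNA, 4.40 with CNOT6 shRNA, 4.24 with CNOT6L shRNA, 4.44 with CNOT7 shRNA and 4.32 with NOC shRNA, and its range was the narrowest but for BUB3.

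MKI67, the gene of the Ki-67 proliferation antigen, was 0.67 and 0.44 on the control arrays, 0.68 with PARN shRNA, 0.57 with CNOT6 shRNA, -0.19 with CNOT6L shRNA, 0.10 with CNOT7 shRNA and -0.064 with NOC shRNA. The PARN and CNOT6 arrays were at the level of the controls and the 3 row 2 arrays were far below them, at 59.8%, 73.1% and 65.1% of control. TOP2A, the topoisomerase that untangles sister chromatids, was 0.45 and 0.57 on the control arrays, 0.39 with PARN shRNA, 0.21 with CNOT6 shRNA, 0.43 with CNOT6L shRNA, 0.58 with CNOT7 shRNA and 0.39 with NOC shRNA. It was lowest with CNOT6 shRNA, and the CNOT7 array was level with the higher control. On the probes whose levels are given, the antigen gene and the topoisomerase gene therefore differed in which arrays were low.

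**Figure D4:**
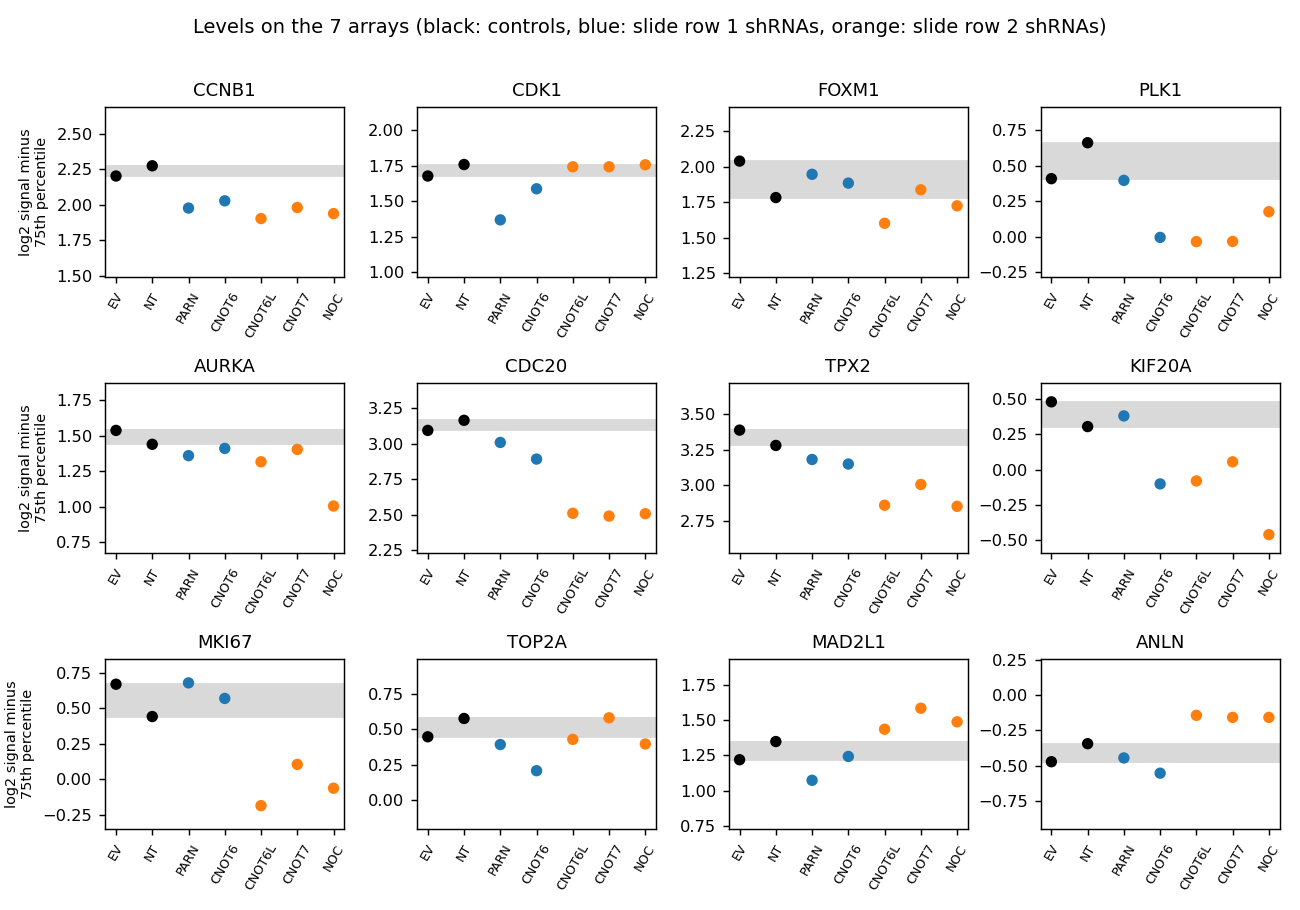
Level of 12 mitosis genes (y axis, log2 signal minus the 75th percentile of the array, each panel spanning 1.2 log2 units) on the 7 arrays (x axis; EV is the empty vector and NT the non-target shRNA). Black points are controls, with the grey band between them, blue points the shRNAs of slide row 1 and orange points those of row 2. CCNB1 is below the band on all 5 shRNA arrays, MKI67 only on the 3 of row 2, and MAD2L1 and ANLN are above it there.

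Slide row moved with part of this pattern. All 3 row 2 arrays were below all 4 row 1 arrays for 14 of 41 genes, or 34.1%, against 15.3% of all genes, among them CDC20, MKI67, NEK2, CENPA, TPX2 and ESPL1. They were above all 4 for 3, MAD2L1, SPC25 and ANLN, or 7.32%, against 13.1%. The median of row 2 minus row 1 shRNA arrays was -0.11 over the mitosis genes and -0.034 over all genes. Against the other 2 arrays of row 2, which removes the row, the median of the mitosis genes was -0.032 with CNOT6L shRNA, 0.10 with CNOT7 shRNA and -0.022 with NOC shRNA, so that the 3 differed little from each other. The part of slide row in the lower values on row 2 was not tested, and the counts within row 1 given above come from a single row.

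Of 48 other mitosis genes that were measured, outside the 42, the medians were -0.049, -0.17, -0.21, -0.19 and -0.13 with PARN, CNOT6, CNOT6L, CNOT7 and NOC shRNA. In that order 24, 33, 34, 33 and 28 were below both controls (background 31.9%, 29.4%, 33.7%, 35.8% and 36.5%). All 5 arrays were below both controls for 9, or 18.8%, against 4.07% of all genes, and 0 were called at 2-fold (background 0.504% to 1.39%). The lowest mean was that of TROAP, a spindle-associated protein, at -0.54, and the highest that of FBXO5, an inhibitor of the anaphase-promoting complex, at 0.19. These genes and the 42 therefore lay on the same side of the controls, with a smaller median in the 48.

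The anaphase-promoting complex itself was measured through 15 genes, whose medians lay between -0.0082 and 0.072. CDC16 was the lowest, with a mean of -0.31, and ANAPC11 the highest, at 0.23. FZR1, the CDH1 activator that replaces CDC20 in late mitosis and G1, was the single gene of these lists called at 2-fold. The call was with PARN shRNA (background 0.509%), and 1 call cannot be told from that background. FZR1 read -0.097 and 0.34 on the controls, 1.84 with PARN shRNA and -0.27 to -0.46 with the other 4, and its probe was the only 1 named for it.

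Transcriptional regulators of these genes, the MuvB core, B-MYB and E2F with their partners, had medians between -0.057 and 0.13 over 15 genes. LIN37, a MuvB subunit, was the lowest, with a mean of -0.51, and LIN54, the subunit that contacts the CHR, the highest, at 0.29. MYBL2, which encodes B-MYB, had a mean of -0.018.

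DNA replication genes, used for comparison as markers of S phase, ran in a different order over the arrays. Their medians over 28 genes were -0.12 with PARN shRNA, -0.092 with CNOT6 shRNA, 0.0050 with CNOT6L shRNA, 0.053 with CNOT7 shRNA and 0.091 with NOC shRNA. Below both controls were 18, 14, 10, 5 and 2 of the 28 in that order (background 31.9%, 29.4%, 33.7%, 35.8% and 36.5%). Above both were 3, 6, 11, 16 and 16 (background 23.4%, 35.5%, 32.4%, 30.6% and 31.1%). The lowest mean was that of CCNE1, the G1/S cyclin E1, at -0.23, and the highest that of its relative CCNE2, at 0.27. On the PARN array the mitosis and replication genes thus had nearly equal medians, and on the NOC array medians of opposite sign. The PARN array lay in slide row 1 with the controls and the NOC array in row 2, so this contrast cannot be told apart from slide row. The median of row 2 minus row 1 shRNA arrays was 0.17 over the replication genes and -0.11 over the mitosis genes.

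Of 5 CDK inhibitors, which hold cyclin-dependent kinases inactive, 4 were above both controls with PARN shRNA (background 23.4%) and 5 with CNOT6 shRNA (35.5%). Their medians there were 0.13 and 0.18. Their medians with CNOT6L, CNOT7 and NOC shRNA, the arrays of slide row 2, were -0.042, -0.045 and -0.068. The median of row 2 minus row 1 shRNA arrays was -0.24, and here too slide row and silencing cannot be told apart. CDKN1C was the lowest, with a mean of -0.25, and CDKN1B the highest, at 0.058. CDKN1A, which encodes p21, the p53 target that leads to repression of G2/M genes through DREAM, was at -4.18 and -4.45 on the controls, -4.16 with PARN shRNA and -3.78 with CNOT6 shRNA, and at -4.53 to -4.77 on the row 2 arrays.

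**Figure D5:**
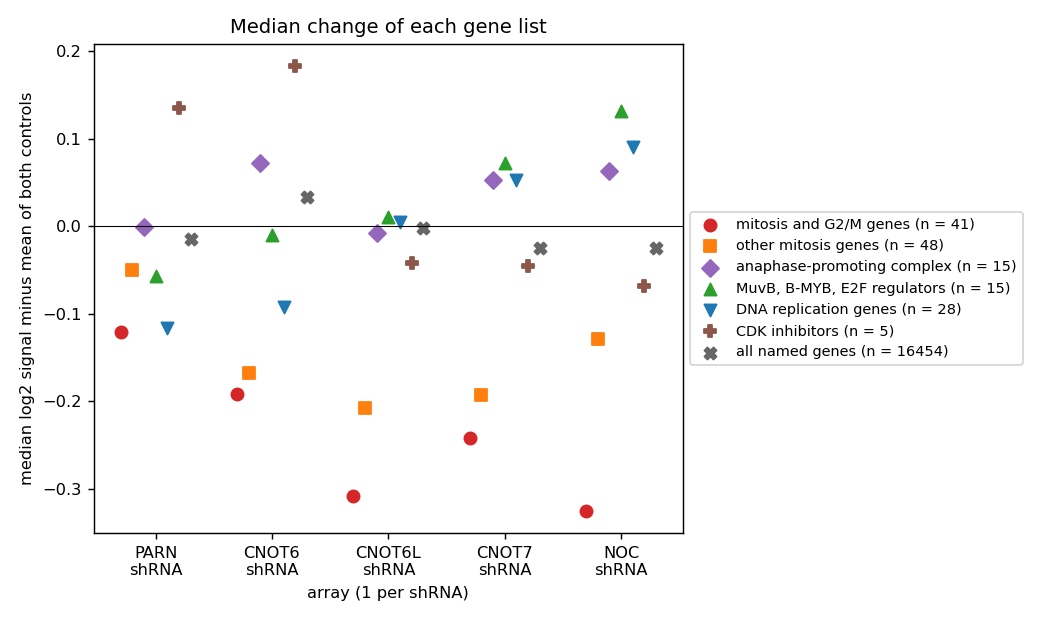
Median difference from the mean of both controls (y axis, log2) on each shRNA array (x axis) for the mitosis and G2/M genes, 5 related lists and all named genes, with the number of genes in the key. The 41 mitosis genes (red circles) and the 48 other mitosis genes (orange squares) lie below 0 on all 5 arrays, and DNA replication genes (blue triangles) go from -0.12 with PARN shRNA to 0.091 with NOC shRNA.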

How the data were processed

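Gene expression was measured in NCI-H520 cells on 7 single-colour Agilent 60K arrays. The authors deposited scanner files made with Agilent Feature Extraction 10.7.3.1, whose intensity values (the processed signal of each spot) are background-corrected per the file headers, and a series table of log2 values, used as an alternative. No sequencing depth applies, and 1 array per group limits the precision.

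Spots flagged as outliers and control spots were left out, spots of a probe were averaged as log2 values, and the 75th percentile over gene spots was subtracted on each array. Of 42405 gene probes, 24824 were named through RefSeq accessions and 1 through the accession in the labels. The brightest probe stood for a gene. Among the mitosis genes 37 probes had several spots, with a median SD of 0.045 between them, and 4 had 1 spot (CCNF, SPC25, NUSAP1 and MKI67). The array design follows another genome build than the gene table, so no probe coordinates are given.

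Each shRNA array was set against both controls by a fold of 2 in the same direction, the fold change given in the methods of the study (its results use log2 values of the same size), and described without a test. All 5 comparisons share the same controls. limma 3.58.1 (R 4.3.3, trended eBayes, probes above background on at least 2 arrays) tested 5 shRNA against 2 control arrays and was tested on simulated data. Its p-values measure only the spread between these arrays. Alternatives were quantile normalization, no scaling, normexp with an offset of 50 on the median signal and local background, the series table, each control alone, all probes of a gene, a fold of 1.5, no filter, slide row as a term and leaving out each array.

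The members, roles and lists were chosen with earlier results of these data known. Every member is named. Values on every array are given for FOXM1, CCNB1, CDK1, PLK1, AURKA, TOP2A and MKI67, for the 3 highest and 3 lowest members with each shRNA, and for the 5 widest and 3 narrowest ranges, and of other lists the highest, the lowest and those called at 2-fold are named. The 100-base promoter window and the counts by slide row were chosen after the values had been seen.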

Additional observations from a re-analysis of the deposited data

Results flagged for a closer look

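Among the 41 mitosis genes, the values on the 5 shRNA arrays were searched for an array far from the other 4, by Dixon's ratio of the gap to the range with a critical value of 0.71. Chance gives such a gene about 1 time in 20, and 2 of 41 were found, which is near that rate. The share of all genes passing this search was not counted. Both genes were found through the NOC shRNA array, the 1 array whose image extraction had a day of its own. AURKA, the spindle pole kinase, was at -0.48 against the control mean with NOC shRNA, where the next lowest shRNA was at -0.17 and the highest at -0.079, a ratio of 0.769. KIF11, the motor that separates the spindle poles, was at -0.33 with NOC shRNA, against -0.16 for the next lowest and -0.10 for the highest, a ratio of 0.732. Each was read from 2 spots per array, and the part of the extraction in these values was not tested.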

How the results depend on the processing

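The median of the mitosis genes kept its sign under quantile normalization, normexp, the series table, either control alone and the mean of all probes, for all 5 shRNAs, and with normexp the CNOT7 median was -0.14. Without scaling between arrays the medians were -0.45 (PARN), -1.20 (CNOT6) and -0.11 (NOC), and turned to 0.090 (CNOT6L) and 0.30 (CNOT7). That setting keeps the brightness of each array, which moved the median of all genes by -0.35, -0.97, 0.40, 0.51 and 0.19 with PARN, CNOT6, CNOT6L, CNOT7 and NOC shRNA. Relative to all genes the mitosis genes were at -0.11, -0.22, -0.31, -0.22 and -0.30. Scaling subtracts 1 value per array, so leaving it out cannot change these differences, and their sameness is no check of the result. Without scaling 16 members were called at 2-fold with CNOT6 shRNA, and 2 (CNOT6L), 0 (CNOT7) and 8 (NOC) lay below both controls. The shares of all genes without scaling were not counted, so these counts have no background and include the brightness of each array. At 1.5-fold 1 member was called with CNOT6L shRNA, 1 with CNOT7 shRNA and 3 with NOC shRNA. limma called 0 probes under each change of processing, and 0 to 61 when an array was left out: 61 without the empty vector and 1 without the non-target shRNA, none of them a member. With a control left out, the lone control is assumed to vary like the shRNA arrays. No paired analysis was possible because each group had 1 array. The signal of all members was well above background, so that the number of arrays and the slide row limit these values.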

Other observations

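Of the 35 mitosis genes with a listed promoter, the 16 with TTTGAA in the last 100 bases before a start had a median difference of -0.31 over the mean of the 5 shRNAs (middle 50% from -0.40 to -0.17), and the 19 without it -0.21 (-0.30 to -0.11). The 12 with both TTTGAA and CCAAT there had -0.28, and the 13 with CCAAT but no TTTGAA -0.21. Among the other named genes above background, 542 had TTTGAA in that window, with a median of -0.0057. Of other genes, 195 had both strings there, with a median of -0.013, and all 12930 with a listed promoter had -0.0059. ANLN, with 2 TTTGAA strings, and MAD2L1, with neither string, were both above the controls on the row 2 arrays.

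For 8 members more than 1 probe was present, and none differed between probes by over 1 log2 unit. KIF4A had means over the 5 shRNAs of -0.20 and 0.19 on its 2 probes, the second on 1 spot. For MKI67, 3 probes gave means of -0.33, -0.33 and -0.29, although with PARN shRNA they ran from -0.12 to 0.42. For PLK1 both probes gave -0.53 to -0.57 with CNOT6L shRNA. BUB3 gave 0.081 and -0.26 with CNOT6 shRNA on its 2 probes.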
